A study of Mus musculus with 6 samples.

Results

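Stat3 and Socs3 are mouse genes of the tyrosine phosphorylation pathway that the cytokine IL-22 uses in epithelial cells. Ptk6 encodes a tyrosine kinase that can phosphorylate STAT3 in cultured cells. The 3 genes were taken by name from a deposited table of 690 genes, and all 3 were found there. The authors of the table had selected its genes as different between control and IL-22-treated enteroids. The table's genes were selected on the difference between the control and IL-22 means, and the 3 members were chosen with those same means in view, so their levels are described here without a test. Enteroids are organoids grown from crypts of the small intestine. They came from C57BL/6J mice without necrotizing enterocolitis, an inflammatory bowel disease of the newborn, and the series asks what IL-22 does in the neonatal intestinal epithelium. The control group was 4 untreated libraries, with 2 wells from each of 2 mice, and the IL-22 group was 2 wells from 1 mouse given recombinant mouse IL-22 for 24 hours after 4 days in differentiation medium. The labels call the wells of a mouse technical replicates, so the spread within the IL-22 group holds no difference between animals. The labels number the treated mouse 1, as they do 1 of the control mice, without saying whether it was the same animal. A dose of 2 ng/ml is stated in the labels, and the header of the deposited table names 100 ng. The age is given as 6 weeks in the sample labels, and as 8 weeks for adult or 7 days for neonatal donors in the protocol.

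IL-22 binds a receptor made of IL22RA1 and IL10RB on epithelial cells, and kinases of the JAK family bound to that receptor then phosphorylate STAT3. Phosphorylated STAT3 forms dimers, enters the nucleus and switches on genes, its own gene and Socs3 among them. SOCS3 binds the activated kinases and receptors and dampens the signal, which makes it a feedback inhibitor. PTK6, also called BRK, is a kinase of the cytoplasm related to the Src family that is found mainly in epithelia, and in cultured cells it can phosphorylate STAT3. STAT3, SOCS3 and PTK6 each carry an SH2 domain, a fold that binds phosphorylated tyrosine.

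STAT dimers bind a palindrome that is often written TTCNNNGAA, so the promoters of the members are shown with every match to it. RefSeq promoter windows of GRCm38.p6 reach from 250 bases before to 50 bases after a transcript start, and such a window was held for Stat3 and for Socs3. Both lie on the minus strand of chromosome 11 and are printed 5′ to 3′, with a match in capitals.
Socs3, chr11:117969317-117969616: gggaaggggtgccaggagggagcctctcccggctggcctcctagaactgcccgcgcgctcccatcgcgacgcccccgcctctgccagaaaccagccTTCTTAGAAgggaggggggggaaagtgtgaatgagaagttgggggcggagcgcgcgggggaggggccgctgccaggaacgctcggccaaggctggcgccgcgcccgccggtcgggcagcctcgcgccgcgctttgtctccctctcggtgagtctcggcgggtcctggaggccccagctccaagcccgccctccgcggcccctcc
Stat3, chr11:100939491-100939790: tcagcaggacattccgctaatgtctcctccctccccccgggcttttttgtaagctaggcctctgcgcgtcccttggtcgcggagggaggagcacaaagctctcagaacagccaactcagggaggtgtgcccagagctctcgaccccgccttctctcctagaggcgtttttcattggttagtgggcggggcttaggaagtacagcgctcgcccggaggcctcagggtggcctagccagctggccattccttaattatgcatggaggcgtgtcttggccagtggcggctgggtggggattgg

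The Socs3 window held 1 match, TTCTTAGAA, from 154 to 146 bases before the start, and the Stat3 window held none. A match is a description of letters and not a binding site. The palindrome reads the same on both strands, and it was present in 2726 of 32851 promoter windows of all genes, or 8.30%. Among windows of listed genes with a higher IL-22 mean it was present in 34 of 251, or 13.5% (95% Wilson interval 9.86 to 18.3%). Among windows of genes that were lower it was present in 21 of 402, or 5.22% (3.44 to 7.85%). These shares are descriptions without a test, and some genes have several windows. The narrower form TTCCNGGAA, every match of which also matches TTCNNNGAA, was present in 1.15% of all windows, in 12 of the 251 windows of higher genes and in 0 of the 402 windows of lower genes, where the Wilson interval reaches up to 0.947%.

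Levels are given in RPM, the reads of a gene per 1000000 reads of its library. The table prints group means, their standard errors (SEM) and mean reads, and from these the whole reads of each library were recovered. The control libraries held 36.6, 35.2, 27.4 and 22.6 times 1000000 reads, and the IL-22 libraries 32.5 and 29.9 times 1000000 reads. Libraries are named by these depths because the table does not say which mouse or well each one is. Intervals of levels are exact 95% Poisson intervals and speak to counting error alone, without the variation between wells or mice. Reads copied by PCR are not separate molecules, so the intervals can be too narrow even for counting error. Each SEM takes libraries as n, although wells of the same mouse are not independent. The SEMs, and the errors propagated from them, are therefore no measure of the error between animals.

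All 3 members had higher levels after IL-22. Among all 690 genes in the table, 38.7% were higher and 61.3% lower. Ptk6 had the largest fold of the 3 at 27.3, followed by Socs3 at 9.64 and Stat3 at 2.54. Ranked by fold among the 690 genes, they stood at places 14, 38 and 173. Ranked by the gain in RPM the order was another, with Socs3 at place 38, Stat3 at place 42 and Ptk6 at place 82.

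**Figure D1:**
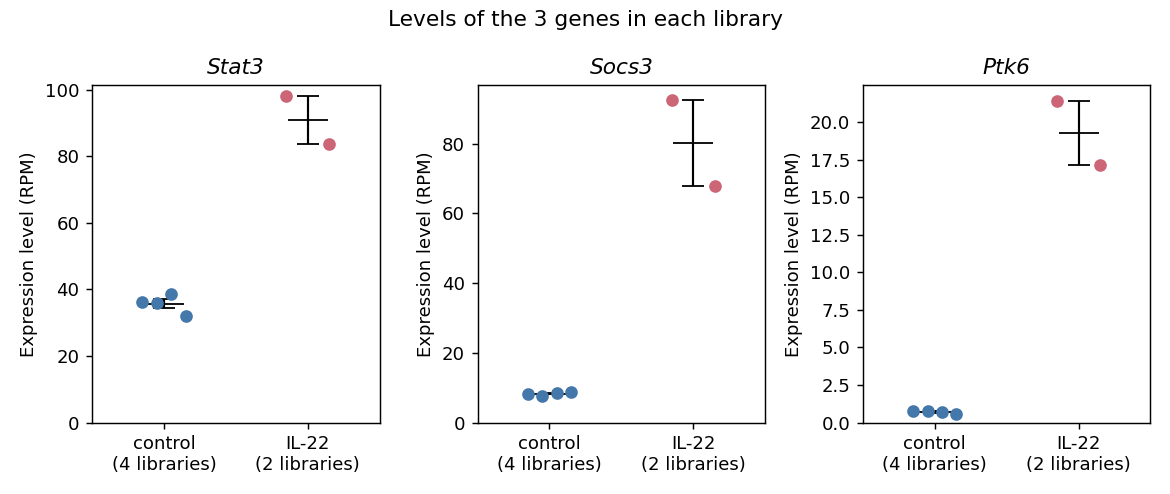
Expression level in RPM of Stat3, Socs3 and Ptk6 in the 4 control libraries (blue) and the 2 IL-22 libraries (red), with the group mean and SEM as black bars and each panel starting at 0. The IL-22 libraries lie above every control library for each gene, at 83.6 and 98.2 RPM for Stat3, 67.7 and 92.6 RPM for Socs3, and 17.1 and 21.4 RPM for Ptk6.

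Stat3 (Entrez 20848, chromosome 11), the transcription factor itself, was already transcribed without IL-22. Its level was 36.4, 35.9, 38.6 and 32.1 RPM in the control libraries, from the deepest to the shallowest, and 98.2 and 83.6 RPM in the deeper and the shallower IL-22 library. The shallowest control library was the lowest and the groups did not overlap. The control mean was 35.7 ± 1.33 RPM (SEM, n = 4) and the IL-22 mean 90.9 ± 7.26 RPM (SEM, n = 2), a difference of 1.35 ± 0.13 on the log2 scale (SE propagated from both SEMs). The lowest IL-22 library was 2.17-fold above the highest control library. The control libraries had a coefficient of variation of 7.45%, where counting error alone gives 3.09%. With 4379 control reads and 5686 IL-22 reads, the ratio of reads per depth was 2.54 (exact 95% counting interval 2.44 to 2.64).

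Socs3 (Entrez 12702, chromosome 11), the feedback inhibitor, was lower than Stat3 in RPM in every control library. Its level was 8.17, 7.72, 8.50 and 8.87 RPM in the control libraries, from the deepest to the shallowest, and 92.6 and 67.7 RPM in the deeper and the shallower IL-22 library. The control libraries lay close together, the IL-22 libraries did not, and the groups did not overlap. The control mean was 8.32 ± 0.246 RPM (SEM, n = 4) and the IL-22 mean 80.2 ± 12.4 RPM (SEM, n = 2), a difference of 3.27 ± 0.23 on the log2 scale. The coefficient of variation was 5.91% among controls, where counting error alone gives 6.40%, and 21.9% between the IL-22 wells, where counting error gives 2.00%. The lowest IL-22 library was 7.63-fold above the highest control library. The ratio of reads per depth was 9.78 (exact 95% counting interval 9.14 to 10.5), from 1005 control and 5029 IL-22 reads.

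Ptk6 (Entrez 20459, chromosome 2), the epithelial kinase, rested on few reads without IL-22. The control libraries held 28, 28, 19 and 13 reads, which is 0.766, 0.794, 0.693 and 0.574 RPM from the deepest to the shallowest. The shallowest control library had an interval of 0.306 to 0.982 RPM, which includes the level of each of the other controls. The IL-22 libraries held 696 and 512 reads, or 21.4 and 17.1 RPM in the deeper and the shallower one, and the groups did not overlap. The control mean was 0.707 ± 0.0491 RPM (SEM, n = 4) and the IL-22 mean 19.3 ± 2.15 RPM (SEM, n = 2), a difference of 4.77 ± 0.19 on the log2 scale. The deposited SEM of the controls corresponds to a coefficient of variation of 13.9%, less than the 21.96% that counting error alone gives, so the SE of the log2 difference is small for so few reads. The ratio of reads per depth was 26.8 with an exact 95% counting interval of 21.6 to 33.7. The lowest IL-22 library was 21.6-fold above the highest control library.

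The absence of overlap between the groups is not particular to these genes. All 6 library values could be recovered for 524 of the 690 genes, and the groups did not overlap in 524 of them (100%), since the authors' selection favours such genes. In a bulk sample, more cells of a type and more RNA per cell cannot be told apart.

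Both IL-22 wells came from 1 mouse, yet they differed in all 3 members, and in the same direction. The deeper library was 1.17-fold above the shallower one for Stat3, 1.25-fold for Ptk6 and 1.37-fold for Socs3. Of the 262 higher genes with both values, 131 were higher in the deeper library (50%), with a median ratio of 0.998 and quartiles of 0.874 and 1.22. The ratios of Ptk6 and Socs3 thus lay above the upper quartile of higher genes and that of Stat3 below it. No test of this difference between single wells is possible. Against the control mean, the fold of Socs3 was 11.1 in the deeper and 8.15 in the shallower library, that of Ptk6 was 30.3 and 24.2, and that of Stat3 was 2.75 and 2.34.

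To compare levels between genes, RPM was divided by the length of all exons of a gene merged, in GENCODE M21, which is 9.53 kb for Stat3, 2.89 kb for Socs3 and 3.69 kb for Ptk6. In control libraries the order per kb was Stat3 at 3.75 ± 0.140, Socs3 at 2.88 ± 0.0850 and Ptk6 at 0.192 ± 0.0133 RPM per kb (SEM, n = 4). The libraries' values did not overlap between neighbours in this order, since Stat3 ranged from 3.37 to 4.05 and Socs3 from 2.67 to 3.07 RPM per kb. With IL-22 the order was Socs3 at 27.7 ± 4.29, Stat3 at 9.54 ± 0.762 and Ptk6 at 5.23 ± 0.583 RPM per kb (SEM, n = 2), again without overlap. The order in each group was the same with the longest transcript as the length, 6.04 kb for Stat3 and 2.55 kb for Socs3. Before division by length, the IL-22 levels of Socs3 (67.7 to 92.6 RPM) and Stat3 (83.6 to 98.2 RPM) overlapped.

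Ratios taken within a library leave out its depth. In RPM per kb, Socs3 over Stat3 was 0.741, 0.709, 0.726 and 0.910 in the control libraries, from the deepest to the shallowest, and 3.11 and 2.67 in the deeper and the shallower IL-22 library. The inhibitor was therefore below the transcription factor in 4 of 4 control libraries and above it in 2 of 2 IL-22 libraries on this scale. Ptk6 over Stat3 was between 0.0461 and 0.0572 in controls, and was 0.564 and 0.529 with IL-22. Ptk6 over Socs3 was between 0.0507 and 0.0807 in controls, and was 0.182 and 0.198 with IL-22.

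**Figure D2:**
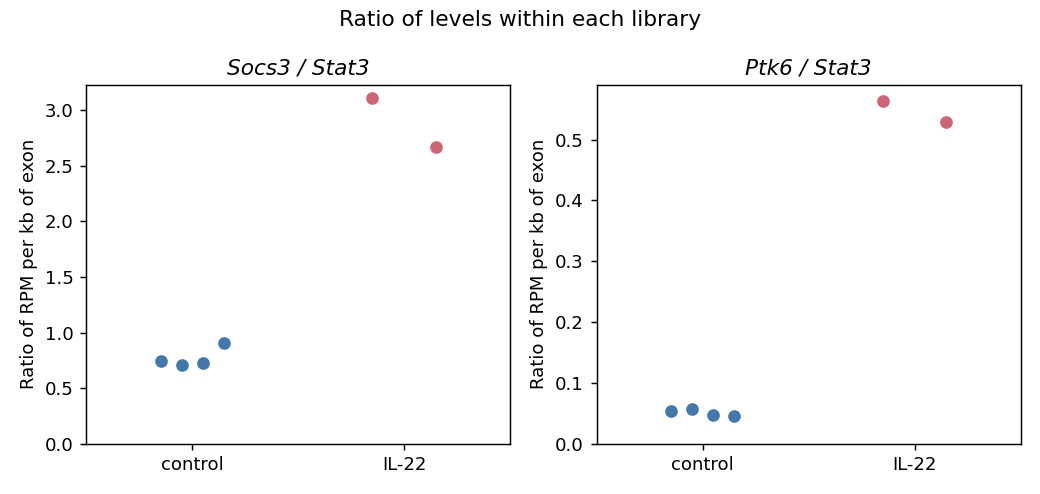
Ratio of Socs3 to Stat3 (left) and of Ptk6 to Stat3 (right) within each library, in RPM per kb of merged exons, with control libraries in blue and IL-22 libraries in red, from the deepest to the shallowest. The Socs3 ratio is 0.709 to 0.910 in controls and 2.67 to 3.11 with IL-22, and the Ptk6 ratio 0.0461 to 0.0572 and 0.529 to 0.564.

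Most of the sequence of the members was not shared with other annotated transcripts. Words were compared in the direction of the transcripts alone, without the opposite strand or the rest of the genome. Of the 31-base words of their GENCODE M21 transcripts, 98.3% for Stat3, 100% for Socs3 and 97.5% for Ptk6 occur in no other gene's transcripts. Socs3 and Ptk6 overlap no other annotated gene. Stat3 overlaps Stat5a, a related STAT gene on the opposite strand, over 72 bases of exon, or 0.756% of its merged exons. No source used here says whether reads were counted by strand.

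Of 27 genes for receptor chains, JAK kinases and STAT factors, 2 were listed and higher, Stat3 and Jak3, 0 were lower and 25 were not listed. The count of 2 became 0 when the p-values of the authors' deposited table were adjusted over all protein-coding genes. Those p-values, here and below, compare wells, and the treated wells came from 1 mouse. Genes that are not listed were not analysed here, so nothing follows for their levels. For comparison, 1.13% of the 21900 protein-coding genes in RefSeq were listed and higher, and 1.82% were listed and lower, 2.95% in all. Without Stat3, which the choice of members puts there, Jak3 alone is listed, and a list of this size says no more than that share. No source used here says how many genes the authors tested.

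Jak3 (Entrez 16453) encodes a JAK kinase best known for pairing with the common gamma chain of cytokine receptors in blood cells. It was low, at 0.875, 1.36, 0.802 and 1.55 RPM in the control libraries, from the deepest to the shallowest, and 5.91 and 3.31 RPM in the deeper and the shallower IL-22 library. The groups did not overlap, although both IL-22 wells and the controls were widely spread. The fold was 4.03, a difference of 2.01 ± 0.47 on the log2 scale, with 137 control and 291 IL-22 reads. Markers of blood cells cannot be followed here: 0 of 7 immune cell markers, 0 of 5 mesenchymal and 0 of 3 endothelial markers were listed, and their part in the level of Jak3 was not tested.

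Among 23 inhibitors of cytokine signalling, which include the SOCS family with Cish, the PIAS proteins and several phosphatases, Socs3 was the 1 listed gene, and 22 were not listed. That count of 1 also became 0 with p-values of the authors' deposited table adjusted over all protein-coding genes. A list of 28 non-receptor tyrosine kinases held the PTK6 and Src families and others, but not the JAK kinases counted above. Ptk6 was its 1 listed gene and 27 were not listed, and that count stayed at 1 with the same adjustment. This is no test of Ptk6, because the same contrast chose it. Of 24 substrates and partners of PTK6, such as Khdrbs1 and Stap2, 0 were listed. Beside 2.95% of all protein-coding genes, counts of 1 or 0 in lists of this size say nothing particular about these families, and Socs3 and Ptk6 are there by choice. In the authors' deposited table the annotation term for the JAK-STAT cascade was attached to 4 genes, Socs3, Jak3, Stat3 and Irf1. All 4 were higher, but Socs3 and Stat3 are there by choice. Other terms of the members were mixed or small. Negative regulation of signal transduction, a term of Socs3, had 6 genes higher and 6 lower. Acute-phase response, a term of Stat3, had 4 higher and 3 lower. Protein tyrosine kinase activity was attached to 2 genes, Ptk6 and Jak3, both higher. The term for cytokine-mediated signaling was attached to 8 genes, 6 higher and 2 lower, Stat3 and Jak3 among the higher ones, beside 38.7% higher among all listed genes. Il4ra of that term, a receptor chain for IL-4 and IL-13 that was picked out after its values were seen, had a mean of 10.5 ± 0.327 RPM in control libraries and 23.1 ± 3.88 RPM after IL-22. No narrow term was shared by the 3 members: the least common of the terms that they share in the authors' deposited table was attached to 111 of the 690 genes.

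Downstream, 16 of 42 genes known as targets of STAT3 were listed. All 16 were higher, 0 were lower and 26 were not listed, beside 1.13% listed and higher among all protein-coding genes and 38.7% higher among all listed genes. This list was put together with earlier results of these data known. The number of its genes that were listed, their direction and the size of their folds are therefore not independent evidence. The shares beside which they stand are given as description alone. The median fold of the 16 genes was 7.48, beside 3.15 for all 267 higher genes. At least 4-fold higher were 10 of the 16, beside 34.1% of the 267 higher genes. With the p-values of the authors' deposited table adjusted over 22028 protein-coding genes (Benjamini-Hochberg, each unlisted gene given the largest possible p-value), 8 of the 16 passed, beside 35.2% of the 267 higher genes.

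**Figure D3:**
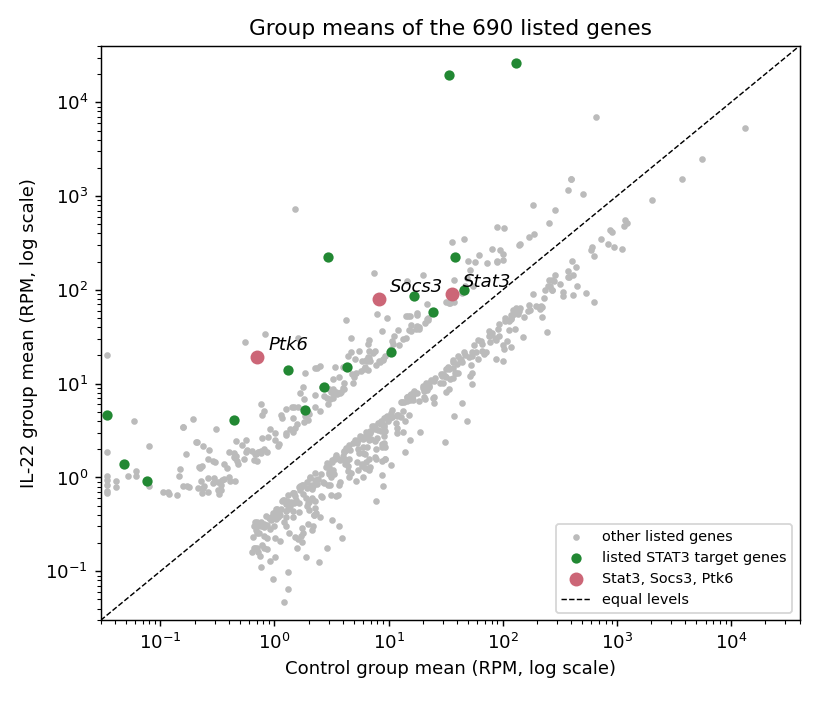
Control group mean against IL-22 group mean in RPM for the 690 listed genes, both axes on a log scale, with Stat3, Socs3 and Ptk6 in red, listed STAT3 target genes in green and a dashed line of equal levels. The empty band along the line is the authors' selection of genes that differ at least 2-fold. The 3 members and the 16 target genes lie above it.

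The targets include transcription regulators with moderate levels. Bcl3, an atypical IkB protein, was at 4.21, 4.85, 3.36 and 4.77 RPM in controls, from the deepest to the shallowest, and at 18.5 and 11.9 RPM in the deeper and the shallower IL-22 library, a fold of 3.54. Cebpd, a leucine zipper factor of the acute phase, was at 3.28, 2.64, 2.33 and 2.69 RPM in control libraries and at 8.22 and 10.2 RPM after IL-22, a fold of 3.37. Both genes were higher in 2 of 2 IL-22 libraries than in any control, but the deeper IL-22 library was the higher one for Bcl3 and the lower one for Cebpd. Klf4, a factor of epithelial differentiation, had a mean of 24.7 ± 1.99 RPM in control libraries and 58.8 ± 7.51 RPM after IL-22. Irf1, a factor of the interferon response, was between 8.70 and 11.5 RPM in control libraries and between 19.4 and 24.5 RPM after IL-22.

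Others encode secreted or surface proteins or, in the case of Fut2, an enzyme. Il18, an epithelial cytokine, was at 18.0, 16.6, 17.1 and 15.6 RPM in control libraries and at 81.7 and 91.2 RPM after IL-22. Fgl1, a secreted protein of the fibrinogen family, was 2.86-fold higher, at 1.53 to 2.05 RPM in control libraries and 5.14 to 5.42 RPM after IL-22. Icam1, an adhesion molecule for leukocytes, went from 0.365 to 0.539 RPM in controls to 3.98 to 4.16 RPM with IL-22. It rested on 55 control reads, and its ratio of reads per depth was 9.03 (exact 95% counting interval 6.72 to 12.3). Fut2, a fucosyltransferase, was between 2.25 and 3.58 RPM in control libraries and between 211.4 and 232.3 RPM after IL-22. Mmp7, a Paneth cell protease, had means of 38.5 ± 4.39 and 224.3 ± 23.6 RPM.

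Saa3, an acute-phase protein, rested on 9 control reads and 58 IL-22 reads, with a ratio of reads per depth of 12.6 (exact 95% counting interval 6.20 to 28.9). Muc1, a membrane mucin, rested on 4 control reads and 86 IL-22 reads, and its ratio of 42.0 had an interval of 15.8 to 157.8. Lrg1, a secreted glycoprotein, had 1 read in all controls together, and its ratio of 577 had an interval of 103 to 22857. For Muc1 and Lrg1 these ratios exceed the folds of the group means, 28.8 and 136.7, because the deposited means give an empty library the value of 1 read. The remaining target genes were Reg3g, Reg3b, Nos2 and Hk2, with folds of 574.5, 199.9, 10.7 and 2.16. Ptk6, which no target list named, had a larger fold than 11 of the 16 target genes, and Stat3 had a smaller fold than 13 of them.

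**Figure D4:**
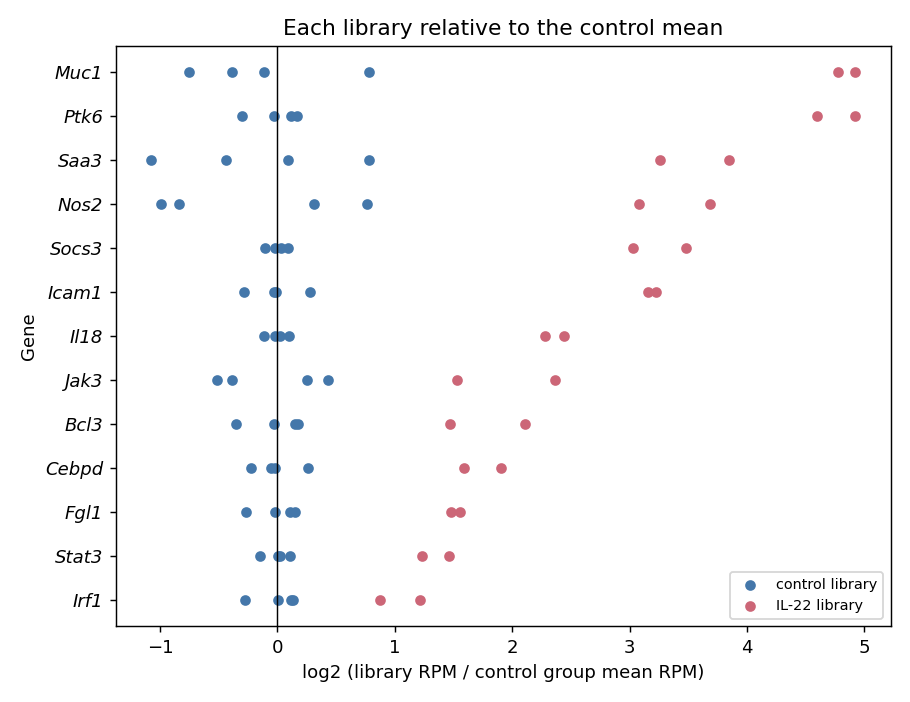
log2 of the level in each library over the control group mean for Stat3, Socs3, Ptk6, Jak3 and the STAT3 target genes with values in all 6 libraries, with control libraries in blue and IL-22 libraries in red. Fut2 and Lrg1 lie farther to the right and are left out to keep the scale, and an empty library is drawn at the value of 1 read. The red points of each gene lie to the right of its blue points, with Irf1 nearest to the controls and Muc1 and Ptk6 farthest.

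Of the 14 promoter windows of listed target genes, 3 held TTCNNNGAA, or 21.4% (95% Wilson interval 7.57 to 47.6%). This interval includes the 8.30% of all promoter windows. The matches were in 3 of the 12 listed target genes that have a window. They were TTCCCGGAA in Icam1, from 42 to 34 bases before the start, TTCCCCGAA in Irf1, from 90 to 82 bases before it, and TTCTTGGAA in Reg3b, from 129 to 121 bases before it. The nonamer of Icam1 is also the narrower form TTCCNGGAA, and that of Socs3 is not.

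The listed genes most like each member were taken as the 3 whose control and IL-22 means lay nearest on the log2 scale, over the 2 group means. For Ptk6 they were Duoxa2, Duox2 and Nos2, at distances of 0.63, 0.83 and 1.00. Duoxa2 went from 0.547 ± 0.0342 to 27.6 ± 2.99 RPM and Duox2 from 0.834 ± 0.0279 to 33.6 ± 7.75 RPM. For Socs3 they were Alpk1, Lgmn and Mgat4c, at distances of 0.53, 0.72 and 0.93, with Alpk1 going from 7.86 ± 0.485 to 55.6 ± 3.09 RPM. For Stat3 they were Stc2, Apobec3 and Sulf2, at distances of 0.29, 0.30 and 0.32, and all of these had folds between 2.01 and 2.11, below that of Stat3.

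The enteroid label could be checked only in part, since most markers were not listed. Of 6 enterocyte markers, 3 were listed (Alpi, Fabp2 and Lct), and these were lower with IL-22, with log2 differences of -1.18, -1.44 and -3.71. Of all listed genes 61.3% were lower. Fabp2, a fatty acid carrier of enterocytes, had a mean of 841.1 RPM without IL-22 and of 309.7 RPM after it. Of 3 tuft cell markers, the 2 that were listed, Trpm5 and Pou2f3, were lower. Of 3 Paneth cell markers 1 was listed, Mmp7, which was higher and also counts among the STAT3 targets above. Of 3 stem cell markers 1 was listed, Olfm4, which was lower. Of 9 general epithelial, 3 goblet cell and 2 enteroendocrine markers, 0 were listed. These markers moved between the same groups as Stat3, Socs3 and Ptk6, and their part in the levels of the 3 genes was not tested.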

How the data were processed

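The authors deposited 1 table of 690 selected genes. Group means and SEMs are in RPM, as inferred from the deposited values, with the value of 1 read given to an empty library. The fold or ratio that the authors deposited divides the IL-22 mean by that of the controls, and the deposited p-values carry a Benjamini-Hochberg adjustment, per the file headers. A further column was read as mean reads per library. Per the submitters' processing notes BWA 0.5.9 and Picard 1.58 were used, while build, annotation and counting program were not given in the sources used here. Per the labels' protocols, libraries were made from oligo-dT-selected RNA with 15 PCR cycles and read from 1 end on 2 sequencer models, with no statement of which library ran on which.

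Whole reads per control library were searched for as the split of a gene's total reads that gives both the printed mean and the printed SEM, with depths taken from genes with few reads (Python 3.11.15, numpy 2.4.6, scipy 1.17.1). Exactly 1 split was found for 526 of 527 genes searched. On simulated data with other depths, 501 of 526 genes had 1 split, and 501 of these were the true one. Genes with over 6000 control reads, 127 in number, and 36 with too many splits were not searched. IL-22 values are mean ± SEM, and came out as whole reads within 0.05 in 680 genes. A value of 1 read can stand for 0. Depths are 22.6 to 36.6 times 1000000 reads, and 3 reads correspond to 0.0820 to 0.132 RPM.

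The 3 members and the gene lists were chosen with earlier results of these data known. Named genes are the members, the listed genes of 5 pathway lists, and the 3 nearest genes of each member. No test of the authors' contrast was made, because it chose the genes. Entrez identifiers gave the match to RefSeq genes (679 of 690), and sequences come from RefSeq, GRCm38.p6. Protein sequences were not used here.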

Additional observations from a re-analysis of the deposited data

Results flagged for a closer look

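Among 21 named genes with values in all 4 control libraries, 1 had a control library far from the others. Sulf2, a heparan sulfate sulfatase and one of the genes nearest to Stat3, was at 33.0, 33.4 and 33.8 RPM in the 3 deeper control libraries and at 38.0 RPM in the shallowest. The gap between the highest value and its neighbour was 0.841 of the whole range, above Dixon's 95% critical value for 4 samples, which chance passes in about 1 in 20 groups. Stat3, Socs3 and Ptk6 did not pass it.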

How the results depend on the processing

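The direction of the 3 members was the same in each alternative run. That outcome was fixed beforehand, because each IL-22 library lay above each control library and an added constant keeps the direction. Leaving out 1 library at a time gave folds of 2.34 to 2.75 for Stat3, 8.15 to 11.1 for Socs3 and 24.2 to 30.3 for Ptk6, the extremes being set by the IL-22 libraries. With 1 RPM added to both means the fold of Ptk6 was 11.9, and with 5 RPM added it was 4.26, while that of Socs3 was 6.39: an added constant lowers the fold of low genes by construction. After adjusting p-values across every protein-coding gene, 0 receptor, JAK and STAT genes, 0 inhibitors and 8 STAT3 targets were left, and at 4-fold 1 and 10 of the first and last list. The palindrome with 1 more base between its arms was in 6.95% of all promoter windows, 6.37% of those of higher genes and 6.72% of those of lower genes. The higher share among higher genes was thus not seen with the longer spacing. The narrower TTCCNGGAA was in 1.15%, 4.78% and 0% of these. Of the 14 windows of listed targets, the longer spacing and the narrower form were each in 1, or 7.14% (95% Wilson interval 1.27 to 31.5%). The nearest genes shared 0 names with those nearest by fold alone, for each member. Nearness by fold alone leaves out the level, which nearness over both group means includes. No paired analysis was possible because recovered libraries carry depths but neither mouse nor well numbers. For that reason, and because the genes were selected, count models and other normalizations were not run. Few control reads limit Ptk6, Icam1, Saa3, Muc1 and Lrg1.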
